A study of Mus musculus with 8 samples.

Results

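The genes described here are integrins, laminins, their basement membrane partners and proteins of focal adhesions. They were chosen by name: 43 gene symbols, each read through its array probe set with exactly 1 gene symbol, and where a gene has several, through the one with the highest mean. Of these, 42 had such a probe set, 1 each, among 19938 genes measured; Ptk2, the gene of focal adhesion kinase, was not analysed here. RNA came from mouse cumulus oocyte complexes, each an oocyte with the cumulus granulosa cells around it. PRKO mice carried lacZ inserted into both copies of the progesterone receptor gene (PRlacZ knock-in), which disrupts transcription of both receptor isoforms. The control mice, PR+/-, carried this knock-in on 1 copy, so both groups carry at least 1 disrupted allele and no wild-type group was used. All mice were prepubertal, 21 to 23 days old, and received 5 IU of equine chorionic gonadotropin (eCG) and, 44 to 47 h later, 5 IU of human chorionic gonadotropin (hCG), the ovulatory stimulus. Complexes were taken from antral follicles 8 h after hCG, and each of the 4 arrays per genotype held a pool from 3 animals, 12 animals per genotype.

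Integrins are receptors made of an alpha and a beta subunit that bind extracellular matrix outside the cell and the actin cytoskeleton inside it. Laminins are trimers of an alpha, a beta and a gamma chain that form the sheet of a basement membrane, in which nidogens and the proteoglycan perlecan join the laminin and collagen IV networks. At a focal adhesion, talin and kindlin activate the integrin, vinculin, alpha-actinin and zyxin link it to actin, and paxillin and the complex of integrin-linked kinase and parvin carry signals. In the ovary, a basement membrane separates the granulosa layer from the theca, and cumulus cells change their attachments as the complex expands after the ovulatory surge.

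Each value is the log2 signal of a probe set on an array, and differences are PRKO minus PR+/- in log2 units. They were tested with limma, a linear model with a moderated spread, over all probe sets with 1 gene symbol, and a gene passed at a Benjamini-Hochberg adjusted p under 0.05. The 8 arrays had medians of 5.35 to 5.46 and upper quartiles of 7.14 to 7.23. Pgr, the gene that carries the insertion, averaged 5.69 ± 0.40 in PRKO and 6.78 ± 0.57 in PR+/- complexes (SD, n = 4 arrays each), with a difference of -1.09 ± 0.26 (SE, limma adjusted p = 0.0452). The highest PRKO array, at 6.17, lay above the lowest PR+/- array, at 6.09. The position of the Pgr probe set with respect to lacZ is not known here. The Pgr call ended without any 1 of PRKO replicates 1, 2 and 3 or PR+/- replicates 2, 3 and 4 (limma adjusted p 0.0660 to 0.130). Pgr passed in 10 of 20 alternative settings. With the mean of 12 oocyte markers as a covariate its difference was -0.99 ± 0.12 (SE, limma adjusted p = 0.000584). The mural granulosa marker Cyp11a1 rose by 0.39 (12.46 in PRKO, 12.07 in PR+/-, limma adjusted p = 0.0324), but that call ended in 6 of the 8 fits without 1 array, those without PRKO replicate 2, 3 or 4 or PR+/- replicate 1, 2 or 3 (up to 0.0923). Fshr, of the same list, fell by 1.06 (7.17 in PRKO, 8.23 in PR+/-, limma adjusted p = 0.00221). With the oocyte marker mean as a covariate the Fshr difference was -1.11 (limma adjusted p = 0.000219). Foxl2 (-0.33, 7.59 in PRKO, 7.92 in PR+/-, adjusted p = 0.175, arrays without overlap) and Inhba (10.81 and 10.69) did not pass. Cyp11a1, Fshr, Foxl2 and Inhba were the 4 of 6 listed mural granulosa markers that were measured. Of 6 listed erythrocyte markers 2 were measured, Slc4a1 (5.41 in PRKO, 5.29 in PR+/-) and Alas2 (5.21 and 5.11), and neither passed. Probe sets differ in brightness, so signals are compared between arrays and not between genes. In pooled complexes, fewer cells of a type and less RNA per cell cannot be told apart. Oocyte and cumulus markers were measured in both groups, with means over 12 oocyte genes of 6.19 to 6.77 on PRKO and 6.10 to 6.96 on PR+/- arrays and over 9 cumulus genes of 8.47 to 9.09 and 8.38 to 8.86. Of the 8 arrays, PR+/- replicate 1 had the lowest oocyte mean and PR+/- replicate 4 the highest. The highest oocyte markers were Uchl1 (8.28 in PRKO, 8.15 in PR+/-) and Padi6 (7.77 and 7.88), and the highest cumulus markers Vcan (12.48 and 12.81) and Tnfaip6 (11.12 and 10.96). Differences were positive for 3 of the 12 oocyte and 6 of the 9 cumulus genes, against 51.3% of all genes, and 0 passed in limma. The oocyte marker Kit (-0.41, limma adjusted p = 0.148) and Vcan (-0.33, 0.0985) were lower in PRKO without overlap. The cumulus marker Cd44 was at 0.44 (0.145), with overlap.

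Zyxin (Zyx) was the 1 of the 42 genes that passed, and it fell in PRKO. That is 2.38% of the members, against 2.92% of all 19938 genes tested (1.43% higher and 1.48% lower in PRKO). At an adjusted p under 0.1, 2 members passed, Zyx and perlecan (Hspg2), against 4.67% of all genes. The other 41 did not pass, and 10 of the 42 (16% of all genes) had an unadjusted limma p under 0.05, 7 with a positive and 3 with a negative difference. Differences ran from -0.56 for Zyx to 0.52 for Hspg2, so each of the 42 was within 1.5-fold, a size that 1.65% of all genes reached or exceeded. The median difference of the members was -0.02, against 0.00 over all genes, with 18 positive and 24 negative. For 30 of the 42 the 95% interval lay within 0.5 log2 units of 0, a 1.41-fold change, and for all 42 within 1 unit, a 2-fold change, not adjusted for the number of genes. The PRKO and PR+/- arrays did not overlap for 4 members, Zyx and Itga2 below and Itgb1 and Itgb5 above the PR+/- arrays, which is 9.52% of the members against 10.2% of all genes. After Zyx at a limma adjusted p of 0.00644, the next lowest were Hspg2 at 0.0529 and Lama4 at 0.116.

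**Figure D1:**
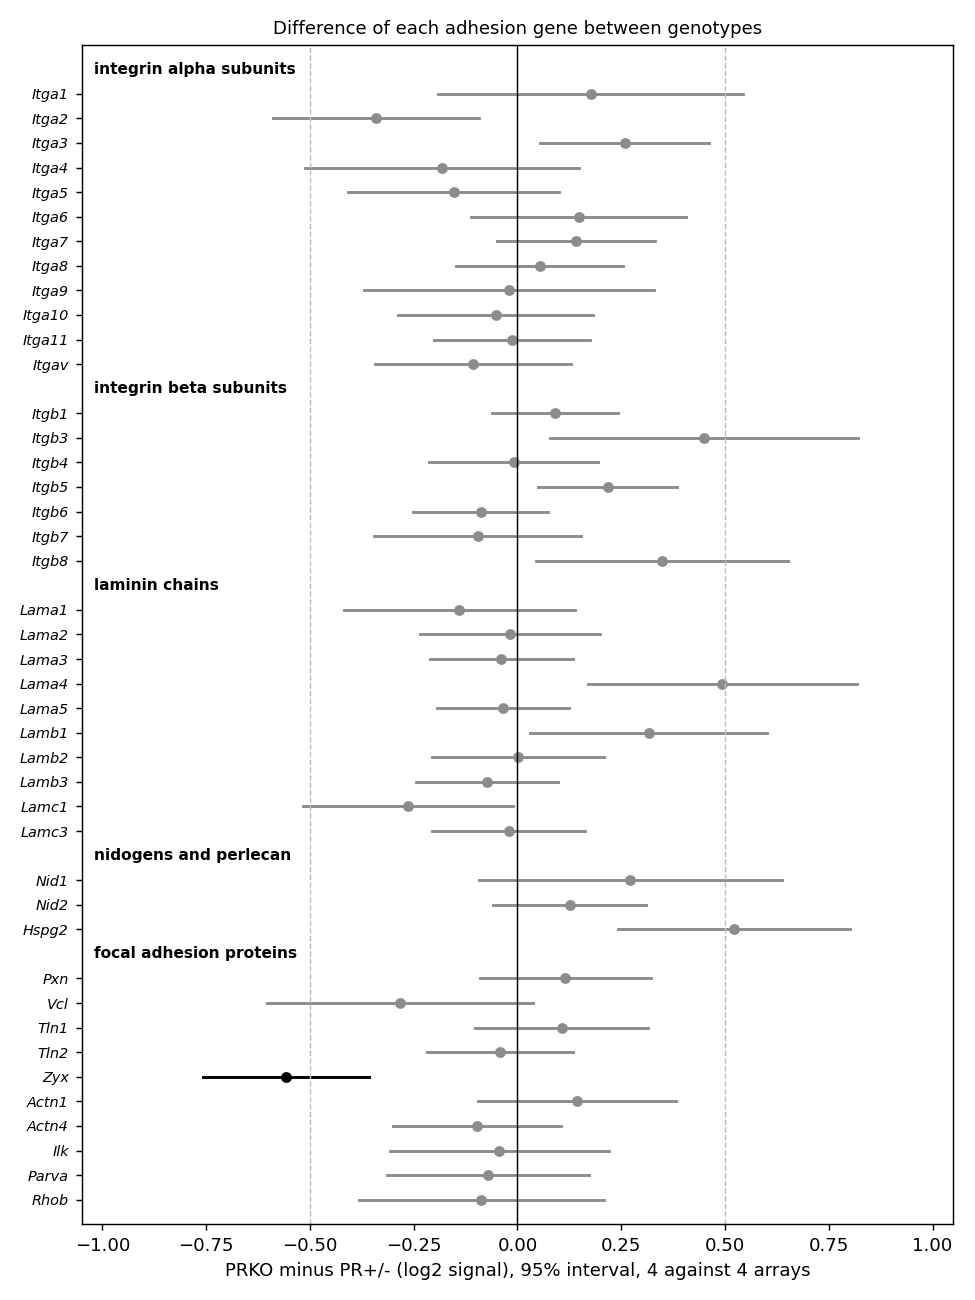
Difference between PRKO and PR+/- complexes (log2 signal, x axis) for 42 integrin, laminin, basement membrane and focal adhesion genes, as points with 95% intervals from limma over 4 against 4 arrays; black marks the gene past an adjusted p of 0.05 and dashed lines mark 0.5 log2 units. Zyx alone is black, at -0.56, and 30 intervals lie between the dashed lines.

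Among focal adhesion proteins 1 of 10 measured genes fell, 0 rose and 9 did not pass, against 2.92% of all genes past the threshold. The list median was -0.06. Zyx, whose LIM-domain protein gathers at adhesions and stress fibres under tension, had signals of 7.72, 7.77, 7.65 and 7.72 in PRKO replicates 1 to 4, against 8.47, 8.17, 8.34 and 8.10 in PR+/- replicates 1 to 4. All PRKO arrays lay below all PR+/- arrays, and the PRKO arrays were the tighter group, with means of 7.71 ± 0.05 in PRKO and 8.27 ± 0.17 in PR+/- (SD, n = 4 each). The difference of -0.56 ± 0.09 (SE, 95% interval -0.76 to -0.36), or 1.47-fold, had a limma adjusted p of 0.00644. A two-sided exact permutation test over the 70 arrangements of the 8 arrays gave p = 0.0286, the smallest it can give. The limma call held without each single array (adjusted p up to 0.0290) and ended when limma's model was fitted without moderation (adjusted p = 0.0753). Because Zyx carries the call, its promoter is shown next.

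The RefSeq table of promoters (GRCm38.p6) held entries for 29 of the 42 members. For Zyx the 250 bases before the gene start lie at chr6:42349578-42349827, + strand, and are printed 5′ to 3′ in lower case, with capitals for the matches found on either strand to TGANTCA (the AP-1 motif) and GGGCGG (the SP1 motif).
Zyx promoter: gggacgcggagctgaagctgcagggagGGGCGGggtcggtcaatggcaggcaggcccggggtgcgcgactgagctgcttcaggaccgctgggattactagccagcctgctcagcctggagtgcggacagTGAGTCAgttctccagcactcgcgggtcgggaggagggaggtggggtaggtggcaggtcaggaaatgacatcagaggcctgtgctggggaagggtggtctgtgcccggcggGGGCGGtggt
The AP-1 match began 121 bases before the gene start, and the 2 SP1 matches began 223 and 10 bases before it. No letters in this window matched ACANNNTGT, the core of the hormone response element that the progesterone receptor shares with the glucocorticoid receptor. Windows of the same length held the AP-1 motif in 6.75%, the SP1 motif in 32.7% and the hormone response element core in 5.84% of 32851 promoters of the table. Among 33 promoters of the 29 members, 2 held the AP-1 motif (those of Zyx and Actn4), 16 the SP1 motif and 0 the response element core. These matches are a description of letters and not of binding sites.

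Vinculin (Vcl), which binds talin and actin, had 10.23, 10.13, 10.31 and 10.24 in PRKO replicates 1 to 4 and 10.81, 10.50, 10.74 and 10.01 in PR+/- replicates 1 to 4. PR+/- replicates 1 to 3 lay above every PRKO array and PR+/- replicate 4 lay below all of them. Its difference of -0.28 ± 0.15 (SE) did not pass (limma adjusted p = 0.385, exact permutation p = 0.200), while without PR+/- replicate 4 it was -0.45 with a limma adjusted p of 0.0327. With the oocyte marker mean as a covariate the Vcl difference was -0.33 ± 0.12 (SE, limma adjusted p = 0.180). Rhob, which encodes a small GTPase, had 10.01, 10.63, 10.21 and 10.15 in PRKO and 10.41, 10.58, 10.26 and 10.11 in PR+/- arrays. The Rhob groups overlapped over most of their range, at -0.09 ± 0.14 (SE, limma adjusted p = 0.814). The other members of this list spanned -0.10 for Actn4 to 0.14 for Actn1, both alpha-actinins that crosslink actin. Talin genes Tln1 and Tln2 were at 0.11 and -0.04, paxillin (Pxn) at 0.12, integrin-linked kinase (Ilk) at -0.04 and alpha-parvin (Parva) at -0.07, and their limma adjusted p ran from 0.619 to 0.906.

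**Figure D2:**
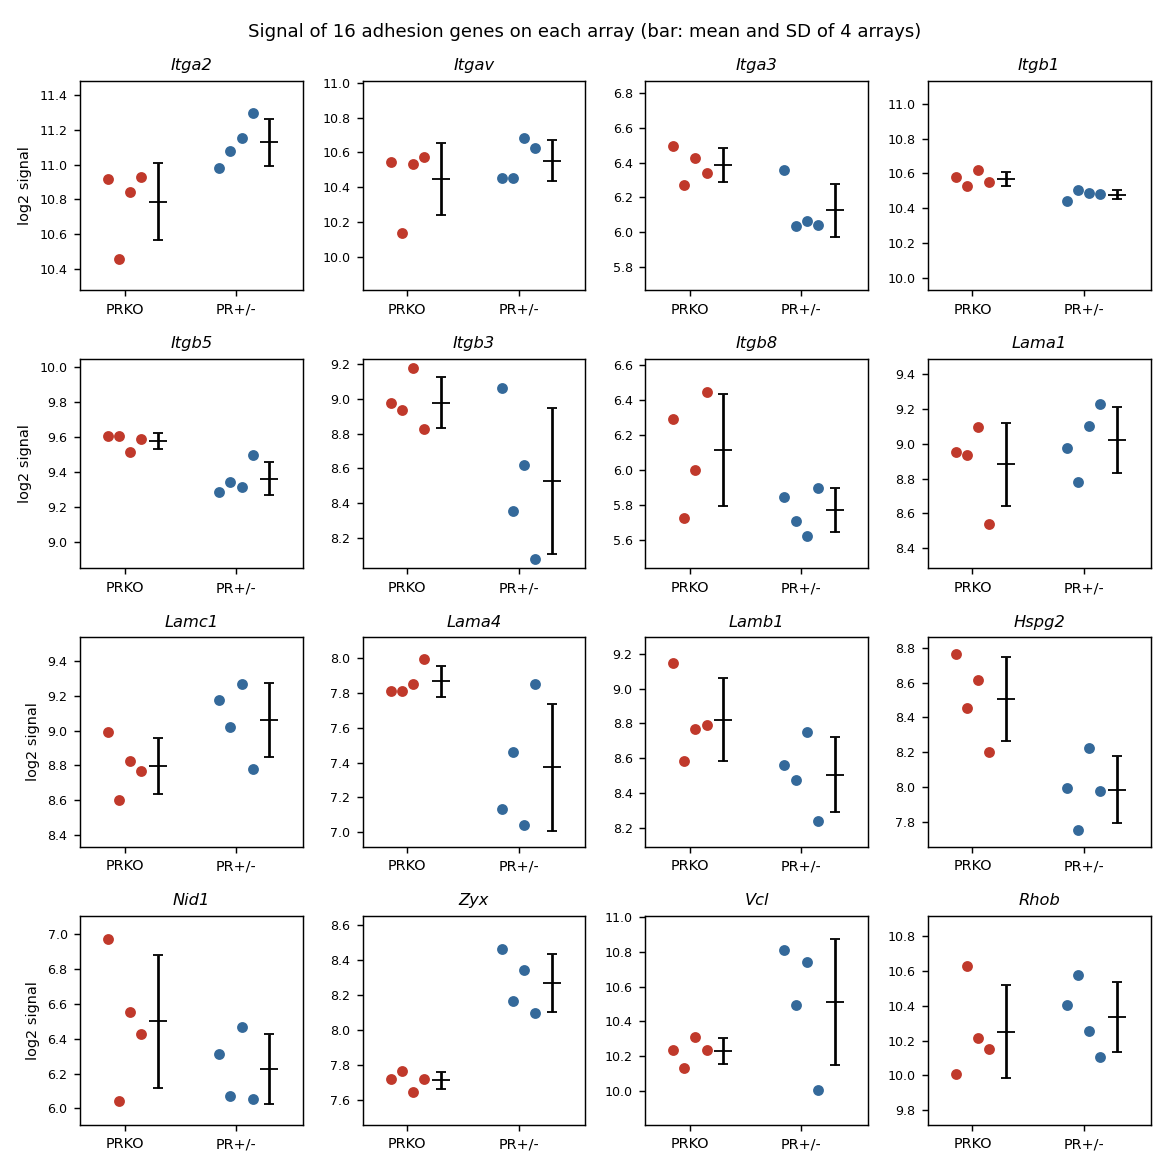
Log2 signal (y axis, a span of 1.2 units in every panel) of 16 members on the 4 PRKO arrays (red, left) and the 4 PR+/- arrays (blue, right), with replicates 1 to 4 from left to right in each group and a bar for mean and SD. For Zyx every red point lies below every blue point, while for Vcl, Itgb3 and Lama4 a single PR+/- array lies among the PRKO arrays or beyond them.

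Of the 12 integrin alpha subunits 0 passed in limma and 2 had an unadjusted p under 0.05 (16% of all genes), Itga2 and Itga3. The list median was -0.02. Itga2, the alpha subunit of a collagen receptor, had 10.92, 10.46, 10.84 and 10.93 in PRKO and 10.98, 11.08, 11.15 and 11.30 in PR+/- arrays. The PRKO arrays lay below the PR+/- arrays without overlap, by 0.06 at the nearest pair, PRKO replicate 4 and PR+/- replicate 1. Means were 10.79 ± 0.22 in PRKO and 11.13 ± 0.13 in PR+/- (SD, n = 4 each), and the difference of -0.34 ± 0.11 (SE) had a limma adjusted p of 0.154 and an exact permutation p of 0.0286, and so did not pass. Itga3, the alpha subunit of a laminin receptor, had 6.50, 6.27, 6.42 and 6.34 in PRKO and 6.35, 6.04, 6.06 and 6.04 in PR+/- arrays. There PR+/- replicate 1 lay within the PRKO range and the other 3 below it (0.26 ± 0.09, SE, limma adjusted p = 0.192). Itgav, the alpha subunit of receptors for the RGD sequence in vitronectin and fibronectin, had 10.54, 10.14, 10.54 and 10.57 in PRKO and 10.45, 10.45, 10.68 and 10.63 in PR+/- arrays. PRKO replicate 2 stood below all others, and the difference was -0.11 ± 0.11 (SE, limma adjusted p = 0.698).

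The fibronectin receptor subunit Itga5 was at -0.15 (95% interval -0.41 to 0.10) and the laminin receptor subunits Itga6 and Itga7 were at 0.15 and 0.14. Itga1, the alpha subunit of another collagen receptor, was at 0.18, and Itga4, Itga8, Itga9, Itga10 and Itga11 lay between -0.18 and 0.05. Itga4, Itga8 and Itga11 were below the median of each of the 8 arrays, where a dim probe set can understate a difference.

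Of the 7 integrin beta subunits 0 passed in limma and 3 had an unadjusted p under 0.05, against 16% of all genes. These were Itgb3, Itgb5 and Itgb8, all with positive differences. Over the whole list 4 differences were positive and 3 negative. Itgb1, the partner of most alpha subunits listed here, had 10.58, 10.52, 10.62 and 10.55 in PRKO and 10.44, 10.50, 10.49 and 10.48 in PR+/- arrays. The groups did not overlap, yet they differed by 0.09 ± 0.07 (SE, 95% interval -0.06 to 0.24, limma adjusted p = 0.593, exact permutation p = 0.0286), with replicate SDs of 0.04 and 0.03. Itgb5, a beta subunit that pairs with alpha V, had 9.61, 9.60, 9.51 and 9.59 in PRKO and 9.29, 9.34, 9.32 and 9.50 in PR+/- arrays. All PRKO arrays were above all PR+/- arrays, the closest pair within 0.02, and the difference was 0.22 ± 0.08 (SE, limma adjusted p = 0.183, exact permutation p = 0.0286).

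Itgb3, which also pairs with alpha V, had 8.98, 8.93, 9.17 and 8.83 in PRKO and 9.06, 8.35, 8.62 and 8.08 in PR+/- arrays. PR+/- replicate 1 lay within the PRKO range and the other PR+/- arrays below it, and the PR+/- SD of 0.42 exceeded the PRKO SD of 0.15. The difference of 0.45 ± 0.17 (SE) did not pass (limma adjusted p = 0.217). Without PR+/- replicate 1 it was 0.63 (limma adjusted p = 0.0355). That was the 1 fit of the 8 without 1 array in which Itgb3 passed, and the others reached 0.393. With the oocyte marker mean as a covariate the Itgb3 difference was 0.39 ± 0.11 (SE, limma adjusted p = 0.0781). Itgb8, which binds latent TGF-beta as a dimer with alpha V, had 6.30, 5.72, 6.003 and 6.45 in PRKO and 5.85, 5.71, 5.62 and 5.90 in PR+/- arrays. PRKO replicates 1, 3 and 4 lay above all PR+/- arrays and PRKO replicate 2 among them (0.35 ± 0.14, SE, limma adjusted p = 0.243). Itgb4, the hemidesmosome subunit that pairs with alpha 6, was at -0.01 (95% interval -0.21 to 0.20). Itgb6 and Itgb7 were at -0.09 and -0.10, with Itgb6 below the lower quartile of every array.

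Laminin chains did not pass either: 0 of 10 in limma, with 3 at an unadjusted p under 0.05, against 16% of all genes. Among these Lama4 and Lamb1 had positive differences and Lamc1 a negative one. Lama4, the alpha chain best known from vessel basement membranes, had 7.81, 7.81, 7.85 and 7.99 in PRKO and 7.14, 7.46, 7.04 and 7.85 in PR+/- arrays. PR+/- replicate 4 reached the PRKO arrays and the other 3 were lower than all of them. Means were 7.87 ± 0.09 in PRKO and 7.37 ± 0.36 in PR+/- (SD, n = 4 each), and the difference of 0.49 ± 0.15 (SE, 1.41-fold) had a limma adjusted p of 0.116. Without PR+/- replicate 4 it was 0.65, with a limma adjusted p of 0.00814. That was the 1 fit of the 8 without 1 array in which Lama4 passed, and the others reached 0.286. With the oocyte marker mean as a covariate the Lama4 difference was 0.54 ± 0.11 (SE, limma adjusted p = 0.0155). Lama1, the alpha chain of the first laminin described, had 8.95, 8.94, 9.10 and 8.54 in PRKO and 8.98, 8.78, 9.10 and 9.23 in PR+/- arrays. The groups overlapped at -0.14 ± 0.13 (SE, limma adjusted p = 0.659).

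Lamb1, a beta chain, had 9.15, 8.58, 8.77 and 8.79 in PRKO and 8.56, 8.48, 8.75 and 8.24 in PR+/- arrays. PRKO replicate 1 was the highest, PRKO replicate 2 lay within the PR+/- range, and the difference was 0.32 ± 0.13 (SE, limma adjusted p = 0.263). Lamc1, the gamma chain found in most laminins, had 8.99, 8.60, 8.82 and 8.77 in PRKO and 9.17, 9.02, 9.27 and 8.78 in PR+/- arrays. PR+/- replicates 1 to 3 lay above all PRKO arrays and PR+/- replicate 4 among them, with a difference of -0.26 ± 0.12 (SE, limma adjusted p = 0.291). Lamb2 was at 0.00 (95% interval -0.20 to 0.21) and Lama5 at -0.03 (95% interval -0.19 to 0.12). Lama2, Lama3, Lamb3 and Lamc3 lay between -0.07 and -0.02, and the first 3 of these were below the median of each array.

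Nidogen and perlecan genes had 3 of 3 differences above 0, as had 51.3% of all genes, and 0 passed in limma, with Hspg2 at an unadjusted p of 0.00154. Hspg2, the gene of perlecan, had 8.76, 8.45, 8.62 and 8.20 in PRKO and 7.99, 7.76, 8.22 and 7.98 in PR+/- arrays. The groups overlapped at 1 point only, where PRKO replicate 4 lay 0.02 below PR+/- replicate 3. Means were 8.51 ± 0.24 in PRKO and 7.99 ± 0.19 in PR+/- (SD, n = 4 each). The difference of 0.52 ± 0.13 (SE, 95% interval 0.24 to 0.80), or 1.44-fold, had a limma adjusted p of 0.0529 and an exact permutation p of 0.0571. Without PRKO replicate 4 it was 0.62, with a limma adjusted p of 0.0242, and under the 20 alternatives that adjusted p ran from 0.0242 to 0.242. Nid1 had 6.97, 6.04, 6.55 and 6.43 in PRKO and 6.31, 6.07, 6.47 and 6.06 in PR+/- arrays. Both the highest and the lowest Nid1 values were PRKO arrays, replicates 1 and 2 (0.27 ± 0.17, SE, limma adjusted p = 0.475), and Nid2 was at 0.13 (limma adjusted p = 0.523).

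Markers of theca and stroma, the cells outside the granulosa layer, were averaged on each array beside the matrix genes. Of 10 measured markers 9 had positive differences, against 51.3% of all genes, with a median of 0.27. In limma 0 passed and 4 had an unadjusted p under 0.05, against 16% of all genes. The mean of the list was 6.35, 5.77, 5.89 and 6.20 in PRKO replicates 1 to 4 and 5.67, 5.68, 5.99 and 5.85 in PR+/- replicates 1 to 4, so the groups overlapped and PRKO replicates 1 and 4 were the highest. No marker was listed at 0, and Lum was below the lower quartile of each array; Acta2 (7.49 in PRKO, 7.02 in PR+/-) and Col1a1 (6.90 and 6.79) had the highest signals. With that mean as a covariate the difference was 0.43 for Hspg2, 0.49 for Lama4, 0.14 for Lamb1 and 0.00 for Nid1, with limma adjusted p of 0.242, 0.273, 0.725 and 0.994. The markers include the matrix genes Col1a1, Col1a2, Col3a1, Dcn and Lum. That fit therefore cannot tell theca and stroma content from a change that matrix genes share. In the same fit Zyx was at -0.55 with a limma adjusted p of 0.0467 and Itga2 at -0.50 with 0.0608. Endothelial markers had 4 of 8 positive differences, and Kdr, a receptor of vascular endothelial growth factor, rose by 0.80 ± 0.15 (SE, limma adjusted p = 0.0126), a call that ended without PRKO replicate 3 (0.0512) or PR+/- replicate 3 (0.0508). Cdh5 was at -0.29 (0.346) and Pecam1 was below the median of each array. The endothelial mean was 5.03 to 5.17 on PRKO and 4.97 to 5.01 on PR+/- arrays, without overlap. Without Kdr, an alternative chosen after the data were seen, it was 4.78 to 5.04 on PRKO and 4.86 to 4.89 on PR+/- arrays, which overlap, and the part of endothelium in the Lama4 and Hspg2 differences was not tested. For theca and stroma, nothing beyond that covariate was tested.

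**Figure D3:**
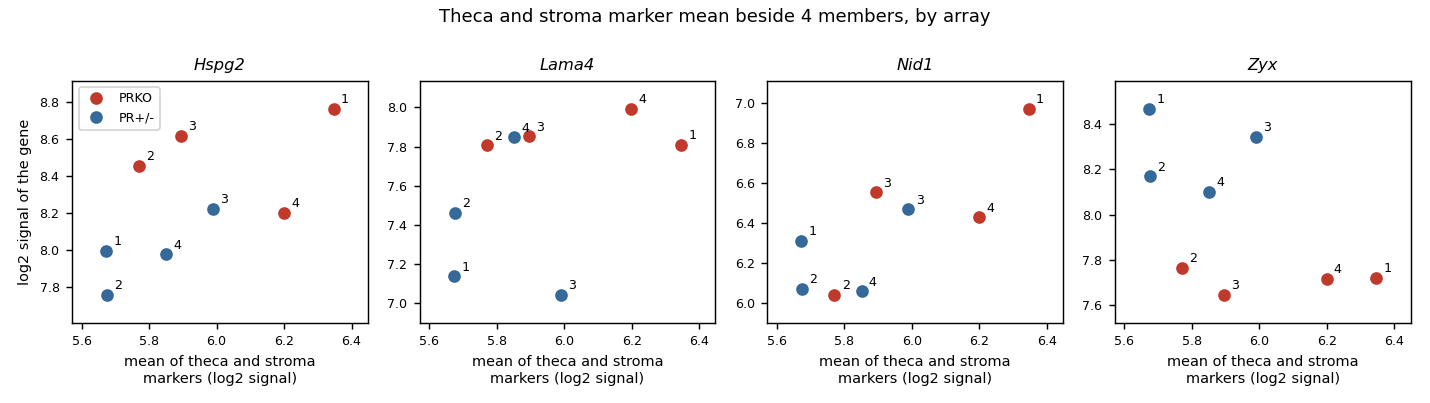
Mean log2 signal of 10 theca and stroma markers (x axis) against the log2 signal of Hspg2, Lama4, Nid1 and Zyx (y axes) on each array, PRKO in red and PR+/- in blue, with replicate numbers. Nid1 is highest on PRKO replicate 1, which also has the highest marker mean of 6.35, whereas Zyx is lower on all 4 PRKO arrays at marker means from 5.77 to 6.35.

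Other genes of the adhesion pathway were listed beside the members: 80 of 84 were measured, 3 rose, 1 fell and 76 did not pass, so 5.00% passed against 2.92% of all genes. Among 34 measured adaptors and kinases of focal adhesions, 1 fell, 0 rose and 33 did not pass. It was Sorbs3, the gene of vinexin, a protein that binds vinculin. Sorbs3 had 5.87, 5.74, 5.78 and 5.91 in PRKO and 6.48, 6.10, 6.45 and 6.15 in PR+/- arrays, without overlap. Its difference of -0.47 ± 0.10 (SE, 1.38-fold) had a limma adjusted p of 0.0319. The call ended without any 1 array other than PR+/- replicates 2 and 4 (up to 0.103), and with the theca and stroma mean as a covariate, where the difference was -0.54 (0.0638). The largest differences short of the threshold in that list were those of the tensin gene Tns1 (0.59, limma adjusted p = 0.137) and Efs, a relative of the adaptor p130Cas (0.52, 0.0928). For Tns1 the direction depended on the probe set: with its probe sets averaged the difference was -0.22 (0.389).

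Integrin ligands had 2 of 18 genes higher, 0 lower and 16 that did not pass, so 11.1% passed against 2.92% of all genes. Tnc, tenascin C, had 8.56, 7.57, 7.75 and 7.73 in PRKO and 7.17, 6.47, 7.11 and 6.42 in PR+/- arrays, and rose 2.16-fold (1.11 ± 0.22, SE, limma adjusted p = 0.0211). Mfge8, a secreted ligand of alpha V beta 3 and alpha V beta 5, had 8.81, 8.65, 8.85 and 8.79 in PRKO and 8.42, 8.41, 8.26 and 8.42 in PR+/- arrays. It rose 1.32-fold (0.40 ± 0.08, SE, limma adjusted p = 0.0209), with no overlap between genotypes. Edil3, whose protein is a close relative of that of Mfge8, was at 0.82 ± 0.20 (SE, limma adjusted p = 0.0527), and fibronectin (Fn1) at -0.35 (0.328). The Tnc call ended without PRKO replicate 3 or PR+/- replicate 2 (0.0512 and 0.0665), and the Mfge8 call without PRKO replicate 3 or 4 or PR+/- replicate 3 (0.0739, 0.0535 and 0.0686). Both calls also ended with the theca and stroma mean as a covariate, at differences of 0.82 for Tnc and 0.39 for Mfge8 and limma adjusted p of 0.138 and 0.0997.

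In the list of other basement membrane genes and laminin receptors 1 of 21 rose, 0 fell and 20 did not pass. That is 4.76% past the threshold, against 2.92% of all genes. Col18a1, which encodes collagen XVIII, had 7.71, 7.58, 7.63 and 7.91 in PRKO and 7.34, 7.09, 7.46 and 7.13 in PR+/- arrays (0.46 ± 0.10, SE, limma adjusted p = 0.0406). That call ended without any 1 array other than PR+/- replicate 3 (up to 0.110), and with the theca and stroma mean as a covariate (0.35, 0.221). Differences were positive for 19 of the 21, against 51.3% of all genes, with a median of 0.17 against 0.00 over all genes. The median was 0.10, with 17 of 21 positive, when the theca and stroma mean was a covariate. Among genes with a mean signal at or above the median, 18 of 20 in this list were positive. Their median was 0.18, against 0.04 over all such genes. Netrin 4 (Ntn4), which binds laminins, and glypican 1 (Gpc1) were at 0.30 and 0.37 (limma adjusted p = 0.0711 and 0.109). Dystroglycan (Dag1), a laminin receptor other than an integrin, was at -0.25 (0.225), and the collagen IV genes Col4a1 and Col4a2 were at 0.10 and 0.08.

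Leukocyte and platelet integrins had 0 of 7 past the threshold in limma and 1 at an unadjusted p under 0.05 (16% of all genes). Itgad was at -0.19 and Itgal at -0.15 (limma adjusted p = 0.286 and 0.392). Signals of Itgam and Itgae were under the lower quartile on all 8 arrays, as were those of the leukocyte markers Adgre1 and Ly6g, and the mean of 9 leukocyte markers was 4.25 to 4.35 on PRKO and 4.20 to 4.33 on PR+/- arrays. Cd68 (5.85 in PRKO, 5.63 in PR+/-) and Cd3e (5.38 and 5.37) had the highest signals of that list.

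**Figure D4:**
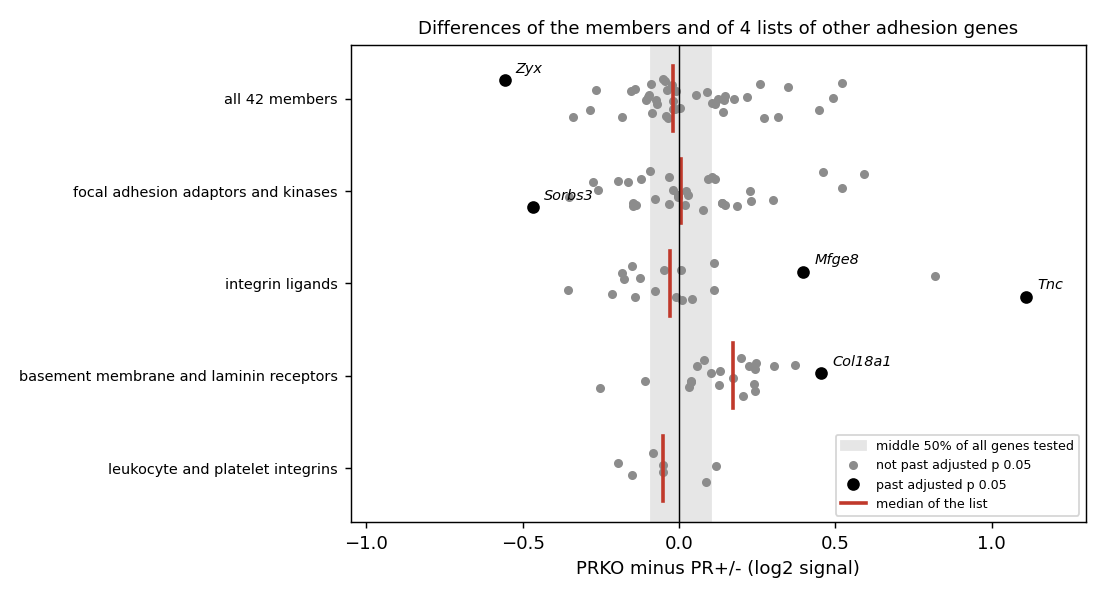
Difference between PRKO and PR+/- complexes (log2 signal, x axis) of the 42 members and of 4 lists of other adhesion genes (rows, 1 point per gene, spread vertically for legibility), with list medians in red and the middle 50% of all genes in grey. Black points are the 5 genes past an adjusted p of 0.05, Zyx and Sorbs3 at negative and Mfge8, Tnc and Col18a1 at positive differences, and the basement membrane list has its median at 0.17.

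Across the 20 alternatives, the plot of adjusted p by setting shows a graded series. Zyx passed in 19 of the 20, Tnc in 15, Mfge8 in 14, Sorbs3 in 11, Col18a1 in 8, Hspg2 in 7 and Lama4 in 3.

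**Figure D5:**
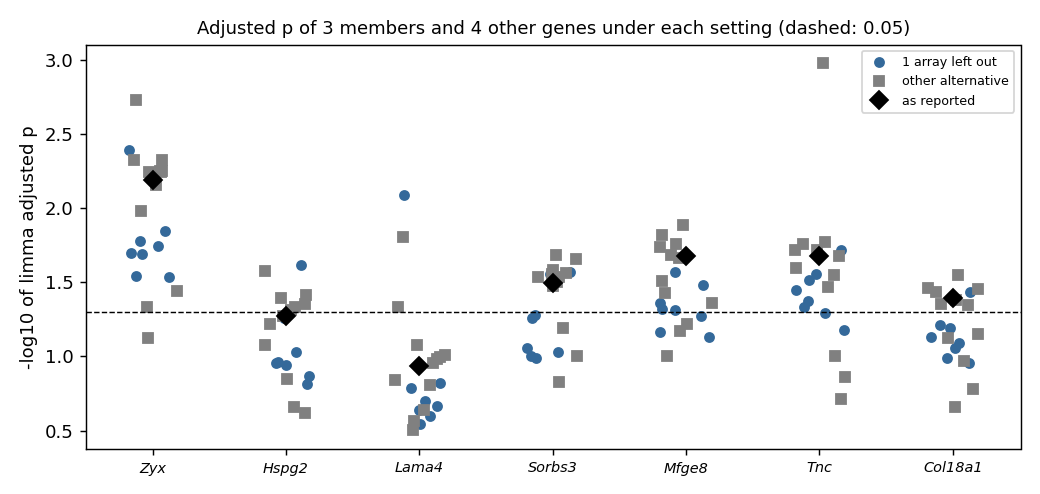
Limma adjusted p as -log10 (y axis, dashed line at an adjusted p of 0.05) for Zyx, Hspg2, Lama4 and 4 other adhesion genes, as reported (black), with 1 array left out (blue) and under the other alternatives (grey). All blue points of Zyx lie above the line, with the highest adjusted p at 0.0290, while those of Hspg2 lie on both sides of it.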

How the data were processed

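Complexes of 4 PRKO and 4 PR+/- pools were measured on Affymetrix whole-transcript arrays with biotinylated cRNA, per the labels' protocols. The authors deposited 1 log2 signal per array and probe set. Per the submitters' processing notes they used Partek; no source used here states its version or how background, scaling and probe summaries were handled. That the scale is log2 was judged from its range, up to 14.08.

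Of 35556 probe sets, all 21789 that carry a single symbol entered the fit, dim ones included, while 1621 carry several symbols and 12146 carry none. Identifiers of 21698 matched RefSeq of GRCm38.p6. The fit was lmFit and eBayes of limma 3.58.1 in R 4.3.3 (prior degrees of freedom 6.04), two-sided and without a block. It was also run on simulated data with independent noise per gene, which lack variation shared across genes within an array. Where a gene had several probe sets, the brightest one stood for it. The number of arrays limits the precision. The members, gene lists and tests were chosen with earlier results of these data known, so no test was made over a list. Array by array were given the members past the threshold and, of each of 5 member lists, the 2 with the highest signal and the 2 with the largest difference. From each list of other adhesion genes came those past the threshold and the 2 next largest differences, and from each of 7 marker lists the 2 with the highest signal. Fshr, Foxl2, Pecam1 and the genes given only by their difference were named after their values were seen. A planned comparison of protein ends was not made, and 1 planned list of other genes is not reported here. Tables were made with pandas 2.3.3 and plots with matplotlib 3.10.9, in Python 3.11.15.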

Additional observations from a re-analysis of the deposited data

Results flagged for a closer look

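Among 148 groups of 4 arrays (74 genes in 2 genotypes), 7 had 1 array far from the other 3 by Dixon's criterion, where chance gives about 1 in 20. In PRKO, Itgav was 10.14 on replicate 2 against 10.54 to 10.57 on the others, Itga10 was 5.73 on replicate 3 against 5.33 to 5.39, and Itgb5 was 9.51 on replicate 3 against 9.59 to 9.61. In PR+/-, Itga3 was 6.35 on replicate 1 against 6.04 to 6.06, Lama5 was 5.58 on replicate 2 against 5.67 to 5.67, Foxl2 was 8.22 on replicate 4 against 7.81 to 7.82, and Mfge8 was 8.26 on replicate 3 against 8.41 to 8.42.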

How the results depend on the processing

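Among the 42 members, Zyx passed in limma under 19 of 20 alternatives, with differences from -0.61 to -0.49. Without moderation 0 members passed, with 7 at an unadjusted p under 0.05. The count of 1 was 2 with either filter on mean signal, with an intensity trend, with array weights, with probe sets averaged per gene, with an adjusted p under 0.1 and with oocyte markers as a covariate; the second gene was Lama4 with oocyte markers (adjusted p = 0.0155) and Hspg2 in the others. Leaving out 1 array gave 1 to 3. With the replicate number as a block 3 passed, Zyx, Hspg2 and Lama4 (adjusted p = 0.0263 and 0.0466 for the last 2), and 671 of all genes. Efs (0.0170), Tns1 (0.0464) and Edil3 (0.0235) passed under the block too. Deviations of same-numbered arrays correlated at r of 0.08 to 0.15, over 0.1 in 3 of 4 pairs, against -0.21 to 0.22 for other numbers, and 4 of 8 arrays correlated best with their own number. The labels tie the numbers to no shared batch, so whether they pair the samples is not settled and the fit without the block is reported. The median difference of the members lay between -0.05 and 0.01. Of the 42 members 28 kept their sign under all alternatives run, and the 14 that did not were within 0.18 of 0. Over all genes, 582 calls became 106 without moderation, 206 with all probe sets, 275 with the theca and stroma covariate, 932 at an adjusted p under 0.1, and 301 to 532 without 1 array. The calls of Sorbs3, Mfge8, Tnc and Col18a1 ended without moderation (adjusted p = 0.149, 0.0671, 0.193 and 0.167) and with all probe sets (0.0606 to 0.107), and Col18a1 did not pass after quantile normalization (0.0756) or centring (0.0701). Calls of Kdr, Pgr and Cyp11a1 ended without moderation (0.149, 0.247 and 0.104) and with all probe sets (0.0685, 0.143 and 0.0865). Pgr and Cyp11a1 did not pass with the theca and stroma covariate (0.0608 and 0.0845). Nor did Pgr with an intensity trend and robust moderation (0.0753), Cyp11a1 with centring (0.0642) or Fshr without moderation (0.0890). Signs were followed for 74 genes only, the 42 members and genes named beside them. Of these 74, 21 turned sign in at least 1 alternative, none of them past the threshold in the fit reported. After quantile normalization Lamb2 at -0.031 and Cd3e at -0.012 turned. With arrays centred Lamb2 at -0.025 and Cd3e at -0.013 turned. With array weights Lamb2 at -0.0019 turned. With probe sets averaged Tns1 at -0.22 turned. With the theca and stroma covariate Itga1 at -0.12, Itga8 at -0.059, Itga10 at 0.0043, Itgb4 at 0.042, Lamb2 at -0.033, Pxn at -0.00070, Actn1 at -0.0098, Rhob at 0.14, Tnfaip6 at -0.062, Inhba at -0.0094, Col1a1 at -0.081 and Col4a2 at -0.011 turned. Col1a1 is itself among the markers averaged into that covariate, so its turn there is not informative. With the oocyte covariate Itga9 at 0.042 and Lama2 at 0.0066 turned. Without 1 array, those that turned ran over Lamb2 -0.060 to 0.073, Lamc3 -0.059 to 0.033, Itga9 -0.18 to 0.13, Itga11 -0.048 to 0.033, Lama2 -0.065 to 0.075, Padi6 -0.31 to 0.088, Ilk -0.14 to 0.041, Cd3e -0.034 to 0.074, Itgb4 -0.094 to 0.044, Tnfaip6 -0.028 to 0.30, Inhba -0.11 to 0.40, Itga8 -0.0045 to 0.12 and Parva -0.14 to 0.027. Causes were not tested. Dim probe sets limit what can be seen for the 9 members below the median of each array.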
